A study of Mus musculus with 6 samples.

Results

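The mitosis and kinetochore genes are a set of 44 genes that drive chromosome segregation and cell division, listed by name. Their measured values were not used as a filter, but earlier results of these data were known when the genes were chosen. Each gene was represented by its brightest probe set among those that carry no other gene symbol, which gave 43 genes of 19938 genes on the arrays. The expression of Ccnb1 (cyclin B1) was not analysed here. RNA from cells of the parental line NME and of the AG1478-resistant line AGR had been hybridized to Affymetrix Mouse Gene 1.0 ST arrays, with 3 arrays for each line. NME cells are NMuMG cells, a normal mammary gland epithelial line of the mouse, that overexpress EGFR after stable viral transduction and puromycin selection. AGR cells carry the same transgene and come from a single colony that grew out of NME cells in 3D cultrex culture with 1 µM AG1478, a kinase inhibitor of EGFR. The colony was expanded in 2D culture, and the methods state that resistant lines were kept without drug. AGR cells are thus 1 isolate, so the selection by drug and the particular colony cannot be told apart. The sources do not say whether the arrays of a line are from different cultures, so the p-values measure the spread between these arrays, which may be technical.

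Cells that enter mitosis activate the cyclin-dependent kinase CDK1 with its B-type cyclins, condense their chromosomes and build a spindle, whose microtubules attach to chromosomes at the kinetochore, a layered protein structure on the centromere. The spindle checkpoint holds back the ubiquitin ligase APC/C with its activator CDC20 until every kinetochore is attached, after which separase cuts cohesin, the sister chromatids part, and the central spindle and an actin ring divide the cell. Many of these genes are transcribed late in the cell cycle by the MuvB complex with B-MYB (Mybl2) and FOXM1, which acts through a promoter motif called the CHR element, and are held down in resting cells by the related DREAM complex.

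The CHR element (TTTGAA or TTCGAA, read on both strands) lay in 29 of 37 promoter windows of these genes (78.4%), against 19.2% of all 32851 windows. The windows reach from 250 bases before to 50 bases after the start of a gene, were taken from RefSeq (GRCm38.p6), and were found for 35 of the 44 genes. The listed sites show the letters beside 6 genes that were higher in AGR cells, 2 that did not pass the test and the 1 gene that was lower. Each run is written 5′ to 3′ on the strand of the gene, and capitals mark the element. TTCAAA is TTTGAA on the other strand.
Ttk (chr9:83834684-83834713, forward strand, higher in AGR): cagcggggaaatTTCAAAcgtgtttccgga
Kif4 (chrX:100626072-100626101, forward strand, higher in AGR): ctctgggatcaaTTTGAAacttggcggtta
Cenpf (chr1:189688067-189688096, reverse strand, higher in AGR): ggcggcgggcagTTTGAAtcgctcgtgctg
Plk1 (chr7:122159453-122159482, forward strand, higher in AGR): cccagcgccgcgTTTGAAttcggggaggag
Anln (chr9:22389168-22389197, reverse strand, higher in AGR): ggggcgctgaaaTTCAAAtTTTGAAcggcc
Kif23 (chr9:61946780-61946809, reverse strand, higher in AGR): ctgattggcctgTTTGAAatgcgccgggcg
Cenpa (chr5:30666890-30666919, forward strand, did not pass): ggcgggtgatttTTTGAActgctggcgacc
Aurka (chr2:172370521-172370550, reverse strand, did not pass): aaaaggagaaccTTTGAAttgtaacggctg
Ube2c (chr2:164769888-164769917, forward strand, lower in AGR): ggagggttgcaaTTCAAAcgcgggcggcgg
In Cenpf and Kif23 the element began 3 bases after the start of the gene, and in Anln, where 2 copies lie 1 base apart, the first began 22 bases after it. Ube2c, with the element beginning 29 bases before the start, carried the same letters as Ttk. The small decrease of Ube2c passed in only 1 of 6 fits that left out 1 array. A link between the element and the direction of change was not tested. The windows of Mybl2, Nuf2, Nek2, Birc5, Cenpe, Mad2l1, Pttg1 and Ccnb1 did not hold these letters, and this says nothing about which factors bind there. Ccna2, Spc24, Incenp, Tpx2, Foxm1, Dlgap5, Aurkb, Cdc25c and Kif20a had no promoter window here.

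The element stood near the start of these genes. It lay within 50 bases of the start in 73% of the windows, against 5.31% of all windows. In the bin from 0 to 25 bases after the start it was found in 35.1% of the windows, against 1.43% of all windows. The CCAAT box (CCAAT on either strand), the binding motif of NF-Y, can share at most 1 base with the element and was present in 78.4% of the windows against 37.4% of all windows. Both motifs stood together in 70.3% against 7.52%. The share with the CHR element was 73.7% among windows of genes higher in AGR cells (14 of 19) and 87.5% among windows of genes that did not pass (14 of 16), and this difference was not tested. Windows of genes from the lists of other mitotic genes, which include DREAM and E2F transcription factors, held it in 37.9% (58 of 153). Windows of DNA replication genes held it in 25% (9 of 36).

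**Figure D1:**
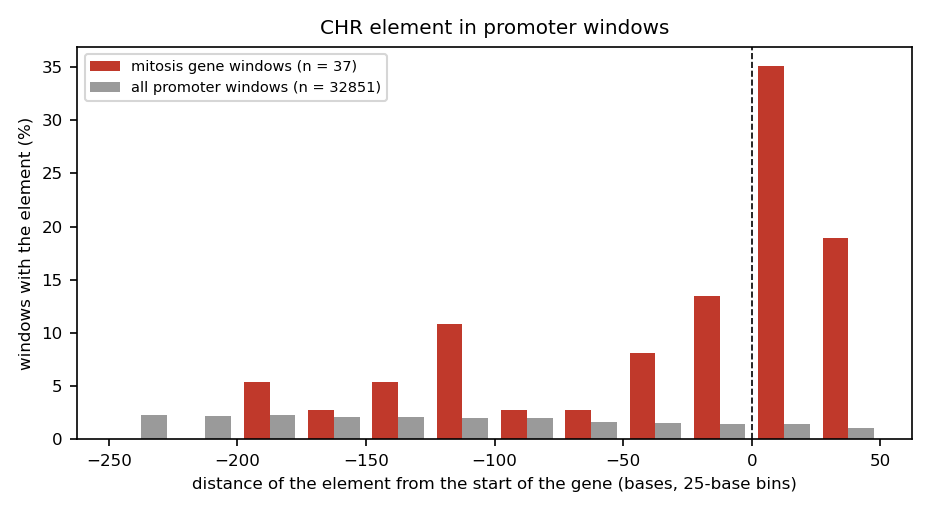
Share of promoter windows (vertical axis, percent) that hold the CHR element at a given distance from the start of the gene (horizontal axis, bases, in bins of 25 bases), for the mitosis genes (red) and for all windows (grey). The tallest red bar, 35.1% from 0 to 25 bases after the start, stands above a grey bar of 1.43%.

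Most mitosis genes were higher in AGR than in NME cells, by modest amounts. At an adjusted p under 0.05 (limma, Benjamini-Hochberg adjustment over 19938 genes), 23 of the 43 genes were higher in AGR cells, where 12.6% of all genes tested were higher. In the other direction 1 gene (Ube2c) was lower, where 11.6% of all genes were. In either direction 24 of the 43 passed, where 24.2% of all genes did. The log2 fold change (AGR minus NME) was above 0 for 41 of the 43 genes, against 43.8% of all genes, and its median was 0.53 against -0.02 over all genes. FC exceeded 2, the threshold for DEGs in the study, for Kif20a, Mybl2, Foxm1 and Nuf2, which is 4 genes higher and 0 lower, where 1.5% of all genes were higher and 1.5% lower by both criteria. On 27 genes every AGR array lay above every NME array, and on 1 gene below, where 17.9% of all genes lay above and 18.5% below. All 43 genes were brighter in both lines than the median of all probe sets (7.61 on the log2 scale), and dim genes pass less often. In a fit limited to genes above this median, 26 of the 43 genes were higher, where 21.8% of the genes fitted were. In that fit 1 was lower, where 19.1% were, and 27 passed in either direction, where 41% did. Each line's RNA came from a bulk culture, so a larger share of cells in mitosis and more RNA per dividing cell cannot be told apart.

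**Figure D2:**
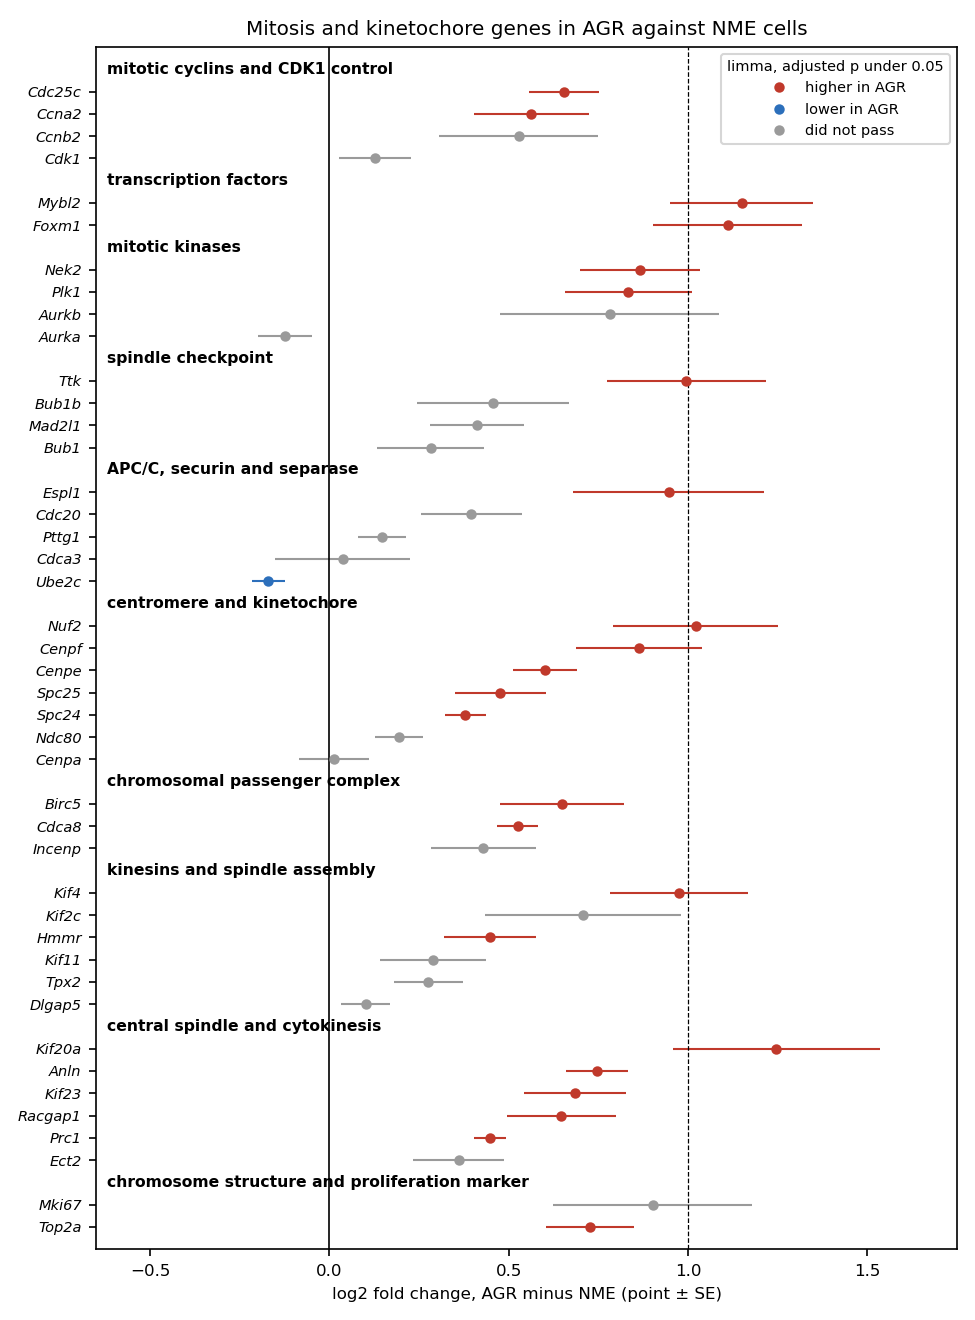
Log2 fold change (AGR minus NME, horizontal axis) of the 43 mitosis genes by role, with points for the estimate and bars for ± SE (n = 3 arrays for each line). Red marks 23 genes higher in AGR cells, blue the 1 gene lower, grey 19 genes that did not pass, and the dashed line stands at an FC of 2.

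The arrays numbered 2 read low on these genes in both lines. NME 2 was the lowest NME array for 40 of the 43 genes, against 36.7% of all genes, and AGR 2 was the lowest AGR array for 41 of the 43, against 36.9%. After each gene was centred on its mean over the 6 arrays, the mean of the 43 genes was -0.25 on NME 1, -0.43 on NME 2 and -0.15 on NME 3. It was 0.42 on AGR 1, -0.04 on AGR 2 and 0.44 on AGR 3. AGR 2 thus lay between the NME arrays and the other AGR arrays, while the mean over all genes lay between -0.01 and 0.01 on the 6 arrays. The median SD of the 43 genes was 0.14 in NME and 0.27 in AGR cells, against 0.07 and 0.07 for all genes. The sources used here do not say that arrays with the same number were handled together. Without AGR 2, 35 of the 43 genes were higher, where 14% of all genes were, and leaving out both arrays numbered 2 (an alternative chosen after seeing the data) also gave 35, where 13% were. The count was 12 without NME 1 (all genes 9.34%), 10 without NME 2 (9.71%), 16 without NME 3 (10%), 12 without AGR 1 (10.7%) and 10 without AGR 3 (8.8%). Mybl2, Foxm1, Anln, Top2a, Cdc25c, Cenpe, Cdca8, Prc1 and Spc24 passed in all 6 of these fits. Kif20a, Nuf2, Espl1, Birc5, Ccna2, Spc25 and Hmmr passed only in the one without AGR 2.

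**Figure D3:**
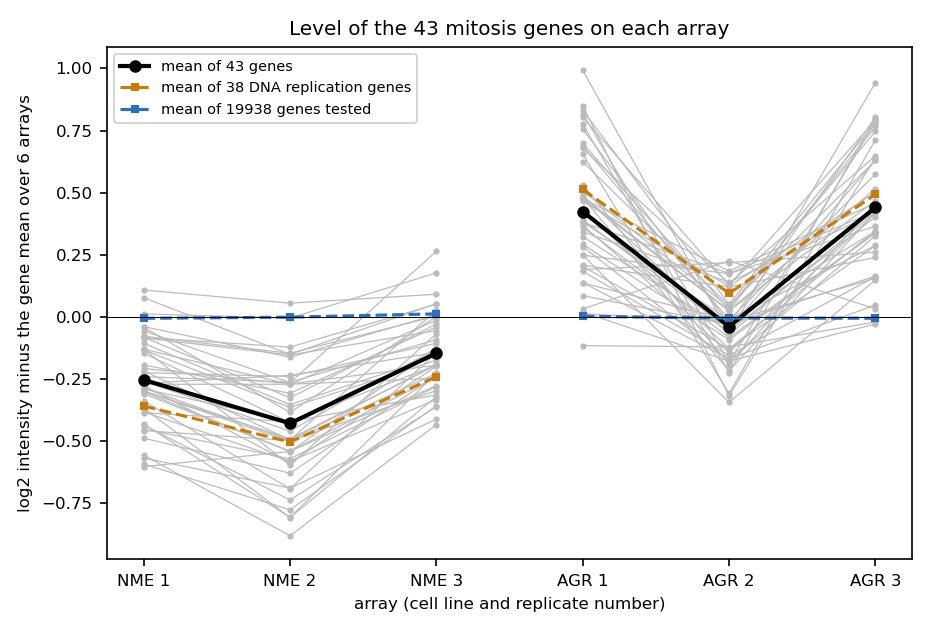
Log2 intensity minus the mean of the gene over the 6 arrays (vertical axis) on each array (horizontal axis), with a grey line for each of the 43 mitosis genes, their mean in black, and the means of 38 DNA replication genes and of all genes in colour. The black points fall to -0.43 on NME 2 and -0.04 on AGR 2, while the mean of all genes stays at 0.

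Both transcription factors of the set were higher in AGR cells. Mybl2, which encodes B-MYB, read 9.50, 9.32 and 9.74 on the NME arrays and 10.90, 10.22 and 10.89 on the AGR arrays. Foxm1 read 9.84, 9.72 and 10.00 in NME and 11.24, 10.46 and 11.19 in AGR cells. The lines did not overlap for either gene, and AGR 2 was the lowest of the AGR arrays for both. The log2 fold change was 1.15 ± 0.20 (SE, adjusted p = 0.0063) for Mybl2 and 1.11 ± 0.21 (adjusted p = 0.0085) for Foxm1.

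Of the 4 measured genes for mitotic cyclins and CDK1 control, 2 were higher. Cdc25c, a phosphatase that activates CDK1, read 7.97, 7.78 and 8.08 in NME and 8.65, 8.44 and 8.69 in AGR cells, with no overlap and a log2 fold change of 0.65 ± 0.10 (adjusted p = 0.0032). It was the dimmest of the 43 genes in NME cells. Ccna2 (cyclin A2) was higher by 0.56 ± 0.16 (adjusted p = 0.044). Cdk1 itself averaged 11.61 in NME and 11.74 in AGR cells, a log2 fold change of 0.13 ± 0.10 that did not pass (adjusted p = 0.46). Ccnb2 (cyclin B2), the brightest of the set in NME cells at 11.66, differed by 0.53 ± 0.22 and did not pass either (adjusted p = 0.15). For both genes AGR 2 fell within the range of the NME arrays.

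Among the 4 mitotic kinases, Nek2 and Plk1 were higher and the Aurora kinases did not pass. Nek2, which splits the centrosomes, read 9.24, 9.12 and 9.41 in NME and 10.31, 9.73 and 10.32 in AGR cells. Plk1, a kinase that acts from mitotic entry to cytokinesis, read 10.65, 10.62 and 10.82 in NME and 11.80, 11.10 and 11.69 in AGR cells. Neither gene overlapped between the lines, and the log2 fold changes were 0.87 ± 0.17 (adjusted p = 0.0097) for Nek2 and 0.83 ± 0.18 (adjusted p = 0.015) for Plk1. Aurkb, the kinase of the chromosomal passenger complex, had a log2 fold change of similar size with a wider error, 0.78 ± 0.31 (adjusted p = 0.12), and its AGR 2 value of 10.76 lay among NME values of 10.38 to 10.93. Aurka, the spindle pole kinase, differed by -0.12 ± 0.07 (adjusted p = 0.32).

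In the spindle checkpoint group 1 of 4 genes was higher. Ttk, the kinase MPS1 that starts checkpoint signalling at unattached kinetochores, read 8.60, 8.16 and 8.65 in NME and 9.67, 8.998 and 9.74 in AGR cells. The lines did not overlap, with a log2 fold change of 1.00 ± 0.22 (adjusted p = 0.017). Mad2l1, the checkpoint protein that binds CDC20, had AGR arrays above all NME arrays and did not pass (0.41 ± 0.13, adjusted p = 0.066). The kinase Bub1 and the related Bub1b (BUBR1) overlapped between the lines, with log2 fold changes of 0.28 ± 0.15 (adjusted p = 0.25) and 0.46 ± 0.21 (adjusted p = 0.19).

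The APC/C, securin and separase group was split, and held the 1 gene that was lower. Espl1, which encodes separase, read 8.35, 8.41 and 8.68 in NME and 9.77, 8.77 and 9.74 in AGR cells. AGR 2 stood only just above the NME arrays, and the log2 fold change was 0.95 ± 0.27 (adjusted p = 0.043). Ube2c, an E2 ubiquitin enzyme that works with the APC/C, read 11.04, 10.98 and 11.02 in NME and 10.81, 10.81 and 10.91 in AGR cells. It was lower by a small amount with no overlap (log2 fold change -0.17 ± 0.05, adjusted p = 0.039), and it did not pass when any 1 of the 6 arrays other than AGR 3 was left out, or when arrays were centred on their medians. Cdc20, the activator of the APC/C, differed by 0.40 ± 0.14 (adjusted p = 0.095), Pttg1, the securin that holds separase inactive, by 0.15 ± 0.07 (adjusted p = 0.18), and Cdca3, a substrate of the APC/C, by 0.04 ± 0.19 (adjusted p = 0.93).

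At the centromere and kinetochore 5 of 7 genes were higher. Nuf2, a subunit of the NDC80 complex that grips microtubules, read 8.70, 8.40 and 8.78 in NME and 9.90, 9.11 and 9.94 in AGR cells, with no overlap and a log2 fold change of 1.02 ± 0.23 (adjusted p = 0.018). The other subunits of this complex had smaller log2 fold changes. Spc25 and Spc24, which join the complex to the inner kinetochore, were higher by 0.48 ± 0.13 (adjusted p = 0.034) and 0.38 ± 0.06 (adjusted p = 0.0033), and Ndc80 differed by 0.19 ± 0.07 without passing (adjusted p = 0.082), although its AGR arrays lay above all NME arrays. The difference between subunits was not tested. Cenpf, a large protein of the outer kinetochore, read 8.91, 8.71 and 8.96 in NME and 9.80, 9.33 and 10.04 in AGR cells. It did not overlap, with a log2 fold change of 0.86 ± 0.17 (adjusted p = 0.012), and the kinetochore motor Cenpe was higher by 0.60 ± 0.09 (adjusted p = 0.0033). Cenpa, the histone H3 variant that marks the centromere, read 10.69, 10.46 and 10.67 in NME and 10.75, 10.44 and 10.66 in AGR cells. These ranges nearly coincided, and the log2 fold change was 0.01 ± 0.10 (adjusted p = 0.95).

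The chromosomal passenger complex, which corrects faulty attachments together with Aurora B, had 2 of 3 genes higher. Birc5 (survivin) read 8.89, 8.68 and 8.99 in NME and 9.57, 9.13 and 9.81 in AGR cells, with no overlap and a log2 fold change of 0.65 ± 0.17 (adjusted p = 0.034). Cdca8 (borealin) was higher by 0.53 ± 0.06 (adjusted p = 8.7e-04), with little spread among arrays and the same value (8.6937) on NME 1 and NME 2. Incenp, the scaffold of the complex, differed by 0.43 ± 0.15 and did not pass (adjusted p = 0.082).

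Of 6 kinesins and spindle assembly genes 2 were higher. Kif4, a kinesin on chromosome arms and the central spindle, read 8.68, 8.31 and 8.89 in NME and 9.79, 9.25 and 9.76 in AGR cells. The lines did not overlap, and the log2 fold change was 0.97 ± 0.19 (adjusted p = 0.011). Hmmr, a microtubule-binding spindle protein, was higher by 0.45 ± 0.13 (adjusted p = 0.046). Kif2c, a kinesin that takes microtubules apart at centromeres, differed by 0.71 ± 0.27 (adjusted p = 0.12) and overlapped at AGR 2. Kif11, the motor that pushes the spindle poles apart, differed by 0.29 ± 0.15 (adjusted p = 0.23). Tpx2, which activates Aurora A on the spindle, had AGR arrays above all NME arrays without passing (0.28 ± 0.10, adjusted p = 0.087). Dlgap5, a spindle protein that stabilizes microtubules near chromosomes, differed by 0.10 ± 0.07 (adjusted p = 0.38).

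The central spindle and cytokinesis group had the highest share, with 5 of 6 genes higher, among role groups of more than 2 genes. Kif20a, a kinesin that brings the chromosomal passenger complex to the central spindle, read 9.80, 9.47 and 9.92 in NME and 11.35, 10.29 and 11.30 in AGR cells. It had the largest change of the 43 genes, an FC of 2.37 (log2 fold change 1.246 ± 0.288, adjusted p = 0.020), although AGR 2 was about 1 log2 unit under the other AGR arrays. Kif23, which forms centralspindlin with Racgap1, read 11.13, 10.92 and 11.20 in NME and 11.91, 11.45 and 11.94 in AGR cells. It was higher by 0.68 ± 0.14 (adjusted p = 0.013) and Racgap1 by 0.65 ± 0.15 (adjusted p = 0.022), both without overlap. Anln (anillin), a scaffold of the contractile ring, read 11.07, 11.03 and 11.14 in NME and 11.93, 11.64 and 11.91 in AGR cells, a log2 fold change of 0.75 ± 0.09 (adjusted p = 0.0011). Prc1, which bundles the microtubules of the central spindle, read 10.22, 10.16 and 10.23 in NME and 10.62, 10.64 and 10.69 in AGR cells. For Prc1 AGR 2 was not the lowest AGR array, and the log2 fold change was 0.45 ± 0.04 (adjusted p = 5.9e-04). Ect2, which switches on RhoA at the division plane, differed by 0.36 ± 0.13 and did not pass (adjusted p = 0.091).

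Top2a, the topoisomerase that untangles sister chromatids, read 10.96, 10.73 and 11.02 in NME and 11.73, 11.39 and 11.77 in AGR cells. It was higher without overlap (log2 fold change 0.73 ± 0.12, adjusted p = 0.0054). A second probe set named for Top2a was dim in both lines, with means of 3.91 and 3.95, and its log2 fold change was 0.04. Mki67, which encodes the proliferation marker Ki-67 on the surface of mitotic chromosomes, read 10.62, 10.48 and 10.87 in NME and 11.88, 10.88 and 11.91 in AGR cells. Its AGR arrays lay above all NME arrays, AGR 2 by a narrow margin, and the log2 fold change of 0.90 ± 0.28 did not pass (adjusted p = 0.058).

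The 19 genes that did not pass were not spread evenly around 0. For 18 of them the log2 fold change was above 0, where 43.8% of all genes tested were, with a range from -0.12 to 0.90 over the 19. Of the 15 genes whose lines overlapped, 11 had AGR 1 and AGR 3 above all NME arrays. The same count was not made over all genes, and the set read low together on AGR 2. Without AGR 2, Mki67, Aurkb, Kif2c, Ccnb2, Bub1b, Incenp, Mad2l1, Cdc20, Ect2, Kif11, Tpx2 and Cdk1 passed as well. Bub1, Ndc80, Pttg1, Dlgap5, Cdca3, Cenpa and Aurka passed in none of the 6 fits with an array left out.

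Many genes of the same pathways outside the set were also higher. Over 9 lists of other mitotic genes, 69 of 145 were higher in AGR cells and 4 lower, with a median log2 fold change of 0.38. This total includes the list of DREAM and E2F transcription factors, which are not all mitotic genes. Over all genes tested 12.6% were higher and 11.6% lower, and these shares stand beside the count of each list below. Among entry and exit regulators 11 of 22 were higher and 0 lower (median 0.44), with the mitotic kinase Pbk at 1.23, Gtse1, a microtubule-binding protein of G2 and mitosis, at 0.72, and Bora, which helps Aurora A activate PLK1, at 0.69. Of other checkpoint genes 7 of 10 were higher, led by Trip13, an ATPase that recycles MAD2, at 0.96, then Sgo2a, a shugoshin that protects centromeric cohesin, at 0.79, and Mad1l1, the partner of MAD2, at 0.65. Within the outer kinetochore 9 of 15 were higher, among them the dynein regulator Nde1 (0.93) and the SKA complex genes Ska3 (0.85) and Ska2 (0.63), and Clip1, a microtubule plus-end protein, was lower (-0.36). In the constitutive centromere network 7 of 18 were higher, with Cenpi at 0.76, Cenpn at 0.74 and Cenpt at 0.74. Of spindle and kinesin genes 14 of 24 were higher, with the spindle pole gene Aspm at 1.14, the kinesin Kif15 at 1.09 and the microtubule-binding Ckap2 at 1.01.

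Of 8 condensin genes, whose products compact mitotic chromosomes, 4 were higher (Ncapg2 0.80, Ncapd3 0.71, Ncapg 0.70 and Smc2 0.63) and the median log2 fold change was 0.67. Of 13 genes for cohesin and its regulators 3 were higher (Smc1a 0.63, Stag1 0.45 and Smc3 0.40), with a median of 0.12. This was 23.1% of the list, where 12.6% of all genes were higher and 11.6% lower. The APC/C list had a median of 0.11, with 6 of 17 higher and 2 lower. Here Fbxo5, which encodes the APC/C inhibitor EMI1, had a log2 fold change of 0.95, and the subunits Anapc15 and Cdc23 had 0.53 and 0.47. The subunit Anapc16 (-0.62) and Fzr1 (-0.19), the CDH1 activator of late mitosis and G1, were lower. Among DREAM and E2F factors 8 of 18 were higher and 1 lower (median 0.24). E2f8 (1.84), E2f7 (1.02) and E2f1 (1.11) are E2F family members, the first a pair of repressors and the last an activator, and Rb1, the retinoblastoma protein that restrains E2F, was lower (-0.48).

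Genes of the earlier phases of the cycle were set beside these for comparison. Of 38 DNA replication genes 29 were higher and 0 lower, with a median log2 fold change of 0.70, above the 0.53 of the mitosis genes. They include Rrm2, a subunit of ribonucleotide reductase (1.40), Uhrf1, which maintains DNA methylation (1.39), and the helicase subunit Mcm6 (1.35). Arrays numbered 2 read low here as well, with NME 2 the lowest NME array for 31 of the 38 genes and AGR 2 the lowest AGR array for 37. The G1 cyclins and CDK inhibitors had 3 of 14 higher (21.4%) and 1 lower (median 0.11), where 12.6% of all genes were higher and 11.6% lower. Ccne1 (cyclin E1) read 8.54, 8.39 and 8.43 in NME and 10.73, 9.88 and 10.57 in AGR cells, a log2 fold change of 1.94 ± 0.21 (adjusted p = 7.9e-04). No gene of the mitosis set had a log2 fold change that large. Ccne2 (cyclin E2, 0.90) and Ccnd1 (cyclin D1, 0.76) were also higher, and Cdkn1b, the CDK inhibitor p27, was lower (-0.49).

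**Figure D4:**
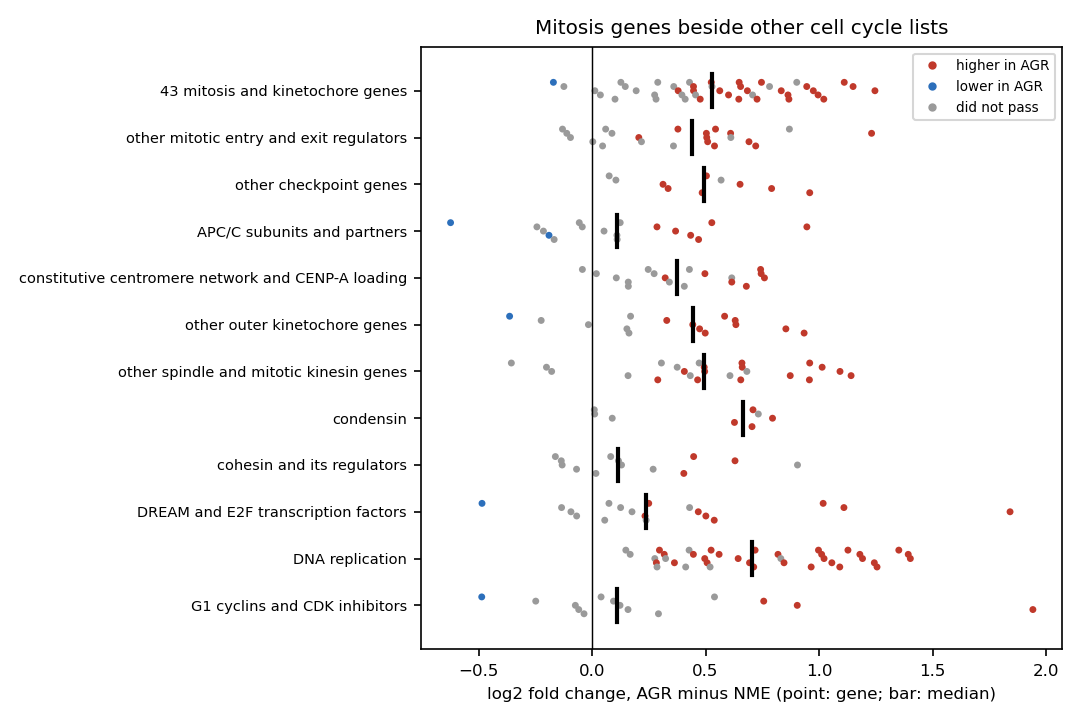
Log2 fold change (AGR minus NME, horizontal axis) of each gene (point) in the mitosis set and in lists of other cell cycle genes (rows), with a black bar at the median of each list. Red marks genes higher in AGR cells, blue lower, grey not passing, and the medians run from 0.11 for the APC/C list and for G1 cyclins with CDK inhibitors to 0.70 for DNA replication.

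Median intensities lay between 190.4 and 200.8, and the correlation over probe sets was 0.995 to 0.997 within a line and 0.986 to 0.988 between lines. Egfr, the overexpressed gene, was bright on all arrays (12.26 to 12.38 in NME and 12.40 to 12.75 in AGR cells) and did not pass (log2 fold change 0.23 ± 0.10, adjusted p = 0.14). Of 10 mammary epithelial markers Krt8 (14.23 in NME, 14.13 in AGR) and Krt18 (13.63, 13.58) were bright in both lines, Cdh1 and Krt19 were lower in AGR cells (-0.60 and -1.04), Gata3 was higher (0.56), and Epcam, Krt5, Krt14 and Elf5 lay under the median of all probe sets. The summed intensity of this list was 55650 to 56260 in NME and 43960 to 45320 in AGR cells. Over all genes tested 12.6% were higher and 11.6% lower in AGR cells. Fibroblast markers (1758 to 1940 in NME, 1803 to 1887 in AGR, 1 of 10 higher) and endothelial markers (1484 to 1612, 1476 to 1535, 0 of 10 passing) had similar sums in the lines, while immune markers (4351 to 4678, 3350 to 3904, 2 of 9 higher and 1 lower) and adipocyte markers (1482 to 1705, 968 to 1068, 1 of 7 lower) had lower sums in AGR cells. The lower sums went with 1 bright gene in each list, Cd14 (11.68 in NME, 11.08 in AGR) and Cidec (9.76, 8.47). The median log2 fold change was 0.04 over the immune list and -0.06 over the adipocyte list. The 2 immune markers that were higher were Cd68 (7.96 in NME, 8.93 in AGR, log2 fold change 0.96) and Csf1r (7.56, 7.83, 0.28). Being dimmer than Cd14, they weighed little in the sum. Ptprc, the pan-leukocyte marker CD45, lay under the median of all probe sets in both lines (7.08 and 7.14). Their part in the higher level of the mitosis genes was not tested.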

How the data were processed

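Global gene expression had been measured on 3 arrays of NME and 3 of AGR cells, assigned to a line by title. What the authors deposited are linear intensities of 35557 probe sets, already processed. MAS5 is the tool in the submitters' notes, with no version, and since this array type lacks mismatch probes the normalization is not settled. Without detection calls, dim probe sets cannot be separated from background, and precision is limited by the small number of arrays. Some genes had identical values on several arrays of a line, such as Gata3 on all 3 NME arrays (8.21). The source of such ties is not stated, and the SD of these genes may understate the spread. Here log2 was taken of the deposited intensities with no offset. Probe sets with 1 gene symbol (21789) were used, and those with several (1621) or none (12147) were left out. Where a gene had more than 1 such probe set (999 genes), the brightest represented it.

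AGR and NME cells were compared over 19938 genes with lmFit and eBayes of limma 3.58.1 (R 4.3.3), with Benjamini-Hochberg adjustment and a threshold of 0.05. The steps were tested on simulated data for this comparison with 19938 genes: limma recovered 22 of 67 genes at a simulated FC of 1.25, 54 of 67 at 1.5 and 63 of 66 at 2, with calls on 8 of 19738 unchanged genes. The changed genes were drawn at random from all genes, and the simulated noise was independent between genes. Array values were printed for the 14 passing genes with the largest change and for the largest of each role group, and of each other list up to 3 passing genes and the one that went most the other way. Ube2c, Prc1, Cenpa, Smc2, Fzr1 and the array values of Ccne1 were added after their values had been seen. The 44 genes, the lists and the tests were chosen with earlier results of these data known. Promoter sequences and their coordinates came from RefSeq (GRCm38.p6) and were scanned with Python 3.11.15. The alternatives were quantile normalization, centring, filters on dim genes, the mean of probe sets, an offset of 16, eBayes with trend and robust settings, the 2-sided test of the study's methods, unadjusted p-values, a replicate block, an FC above 2 and leaving out each array.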

Additional observations from a re-analysis of the deposited data

How the results depend on the processing

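The median log2 fold change of the mitosis genes stayed above 0 under each alternative run, from 0.46 to 0.68 with an array left out, and no gene that passed the test changed sign. The 23 genes were kept wherever the count rose. The count higher in AGR cells (23) was 6 (8.46% of all genes) with the 2-sided test of the study's methods and 4 (1.5%) with an FC above 2. With 1 array left out it was 10 to 35 (8.8% to 14%). Without the arrays numbered 2 of both lines, an alternative chosen after seeing the data, it was 35 (13%). The count called in either direction (24 of 43) was 6 with the methods' test, where 16.4% of all genes were called. It was 4 with an FC above 2, where 1.5% of all genes were higher and 1.5% lower. With 1 array left out it was 10 to 35, where 17.3% to 26.9% of all genes were called. Ube2c was the 1 gene lower, and this count was 0 with centring, the methods' test, an FC above 2 and without both arrays numbered 2, and 0 to 1 with 1 array left out. Of the other mitotic genes 69 were higher (12.6% of all genes), 37 with the methods' test (8.46%) and 7 with an FC above 2 (1.5%). Those lower (4) numbered 7 with quantile normalization (12.3% of all genes), 8 among genes above the median level (19.1%) and 11 with unadjusted p-values (16.5%). They numbered 0 with an FC above 2 (1.5%) and 10 without both arrays numbered 2 (12.7%). With 1 array left out they numbered 2 to 8 (7.93% to 12.9%).

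With the replicate number as a block, 35 mitosis genes were higher (13.7% of all genes). In that fit 0 mitosis genes and 7 other mitotic genes were lower, where 11.6% of all genes were. Deviations of same-numbered arrays correlated at -0.13, 0.33 and 0.26 across genes. In all, 3 of 6 arrays correlated best with their own number, among them both arrays numbered 2. Whether the numbers pair the arrays was not settled by these values. The cause of these differences was not tested. In the simulation 54 of 67 genes with an FC of 1.5 were recovered and fewer with a smaller FC, so a gene that did not pass may still differ. Those genes were drawn from all genes, whose median SD was 0.07 in each line. For the mitosis genes it was 0.14 in NME and 0.27 in AGR cells, and their recovery was not counted separately.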
